A study of Mus musculus with 6 samples.

Results

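The transcripts described here belong to 2 gene families that interferon induces in the mouse, the Schlafen genes and the p200 genes. The 10 members were taken by symbol from the deposited table: Slfn1, Slfn2, Slfn3, Slfn4, Slfn5, Slfn8 and Slfn9 from the Schlafen family, and Ifi203, Ifi204 and Ifi205 from the p200 family. All 10 were found, each on 1 of the 34745 rows. The comparison was between renal fibroblasts cultured alone and renal fibroblasts cocultured with Th17 cells. The rule took rows by name and used no measured value, but the names were chosen with earlier results of these data known.

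Schlafen proteins are found in immune and stromal cells, and several of them restrain cell division or protein synthesis. Slfn1 and Slfn2 encode short forms, Slfn3 and Slfn4 intermediate forms, and Slfn5, Slfn8 and Slfn9 long forms that carry a helicase-like domain. The p200 proteins, also called PYHIN or HIN-200 proteins, bind double-stranded DNA through their HIN domains, and many of them carry a pyrin domain that docks onto other pyrin proteins. Type I interferon binds the receptor formed by Ifnar1 and Ifnar2, and the Jak1 and Tyk2 kinases then activate transcription factors such as Stat2. Together with Irf9, Stat2 acts on a DNA element called ISRE (interferon-stimulated response element) in the promoters of such genes, whereas interferon gamma acts through another element, called GAS.

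The study asked how Th17 cells, helper T cells that make interleukin-17, act on kidney fibroblasts. Wild-type (WT) primary fibroblasts were grown from digested mouse kidney, and Balb/c is the only mouse strain that the study's methods name. They were either left alone (3 libraries) or kept for 24 h beneath a transwell insert with pores of 0.4 µm that held the Th17 cells (3 libraries), and only the cells in the lower chamber were collected. The Th17 cells had been differentiated beforehand from CD4+ T cells with antibodies to CD3 and CD28, interleukin-1β, interleukin-6, interleukin-23 and an antibody against interferon gamma. Whether the wells without Th17 cells held an empty insert was not stated. The sources also do not say if these reagents or the T cell medium were removed before coculture. No other T cell type was among these libraries. The effects of an insert, of carried-over reagents or medium, of T cells in general and of Th17 cells therefore cannot be told apart. The sources do not say if the libraries of each group were separate cultures or animals, and the errors below therefore measure only the spread between these libraries.

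Total counts were between 12050529 and 13209581 fragments per library, and 3 counts corresponded to between 0.223 and 0.254 CPM, which puts counts on one library size using TMM factors. All 16 fibroblast markers examined were detected and tested, and 8 of them were lower and 1 higher in coculture. Of 10 endothelial markers 4 were tested (1 lower, 1 higher), and of 10 epithelial markers 3 (1 lower). Of 22 T cell markers, 8 had no count in any library, and the summed level of all 22 was between 9.78 and 10.1 CPM in fibroblasts alone and between 5.81 and 6.77 CPM in cocultured fibroblasts. Macrophage markers were present at a low level and were lower in coculture. Of the 22 examined, 12 were tested and 10 were lower, with a summed level between 77.0 and 83.0 CPM in fibroblasts alone and between 21.6 and 23.0 CPM in coculture. Adgre1, which encodes F4/80, had 71, 47 and 55 counts alone and 0 in all 3 cocultured libraries, and 7 of the 22 markers were at 0 in all cocultured libraries. Among these, Tyrobp, C1qa, C1qb, C1qc and Lyz1 had at most 10 counts in any library of fibroblasts alone and were not tested. Of the 3 with most counts, Lyz2 was lower (log2 fold change −3.05), Cd14 was at −0.00056 and Cd68 at −0.93, neither of them past the threshold. Macrophages also transcribe several of the genes below, and the part of these markers in the results was not tested. In bulk RNA, fewer cells of a type and less RNA per cell cannot be told apart.

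Promoter sequences are shown first, and their part in the change was not tested. The ISRE letters stood in 3.77% of the 9610 tested genes that had a window under the same symbol. Among the members, they stood in the windows of the 5 called lower that had one and in none of the other 4. Of these 4, Slfn2 and Slfn3 were tested and not called, and Slfn1 and Slfn4 had too few counts to be tested, although Slfn4 had no count in any cocultured library and was called lower by DESeq2 and by edgeR without a filter. RefSeq windows from 250 bases before to 50 bases after each annotated start (build GRCm38.p6) were given for 9 of the 10 members, all but Ifi204. They were searched on both strands for the core of the ISRE, which is GAAA, any 2 bases and GAAA again, and for the GAS element, which is TTC, any 3 bases and GAA. The ISRE letters were found in the windows of 5 members, namely Slfn5, Slfn8, Slfn9, Ifi203 and Ifi205, and not in those of Slfn1, Slfn2, Slfn3 and Slfn4. Slfn8 and Ifi203 had 2 windows each, and the first window of Ifi203 held no match. Among the other p200 genes called lower that had a window, Mnda, Mndal, Ifi207 and Ifi208 held the letters, and Ifi202b and Pyhin1 did not. The following 30-base stretches carry the match in capitals and are written 5′ to 3′ on the strand of the gene, so that a match on the other strand reads TTTC, 2 bases and TTTC.
Slfn5 (chr11:82951937-82951966, + strand): ccttcaaagtGAAAAAGAAAaaaaaaaaag
Slfn8 (chr11:83020839-83020868, − strand): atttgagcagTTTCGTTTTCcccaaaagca
Slfn9 (chr11:82991856-82991885, − strand): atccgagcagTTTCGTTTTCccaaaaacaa
Ifi203 (chr1:173942508-173942537, − strand): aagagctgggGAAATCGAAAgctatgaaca
Ifi205 (chr1:174031870-174031899, − strand): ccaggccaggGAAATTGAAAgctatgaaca

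The match began 48 bases before the first annotated start of Slfn8 and 45 bases before that of Slfn9, and the same 10 letters stood in both. In Ifi203 it lay 35 bases before the second of 2 annotated starts, in Ifi205 134 bases before the start, and in Slfn5 155 bases before the start. These are RefSeq starts, and the matches of Slfn5 and Ifi203 lie inside the genes as counted, which begin at 82951349 and 173942672. Ifi205 had a further match 23 bases after its start. The windows of 2 Schlafen genes are contrasted below over the 250 bases upstream of the start, because Slfn9 fell in coculture and Slfn2 is the abundant member whose change did not reach 2-fold. The Slfn9 stretch holds the match in capitals, and the Slfn2 stretch holds none.
Slfn9 (chr11:82991831-82992080, − strand): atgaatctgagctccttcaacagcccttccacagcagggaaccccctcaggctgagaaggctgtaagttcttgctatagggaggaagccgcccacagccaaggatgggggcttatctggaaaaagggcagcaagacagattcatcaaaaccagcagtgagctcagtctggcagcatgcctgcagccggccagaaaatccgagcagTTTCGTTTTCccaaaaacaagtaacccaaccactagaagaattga
Slfn2 (chr11:83064862-83065111, + strand): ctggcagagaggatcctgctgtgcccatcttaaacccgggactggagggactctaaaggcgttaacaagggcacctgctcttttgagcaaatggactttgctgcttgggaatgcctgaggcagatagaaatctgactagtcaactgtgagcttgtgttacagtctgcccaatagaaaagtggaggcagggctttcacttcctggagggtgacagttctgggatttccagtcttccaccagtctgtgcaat

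The ISRE letters stood in 3.44% of all 32851 windows. Counted by gene, they stood in 3.77% of the 9610 tested genes that had a window under the same symbol. Among these, they stood in 11.4% of the 687 that were lower in coculture and in 4.09% of the 342 that were higher. Tested genes whose window carries a newer symbol, such as the p200 genes Ifi207 and Ifi208, were left out of these counts. The GAS letters stood in 8.30% of all windows and in none of the members' windows. A match is a description of these letters and not a measured binding site, and a window without one says nothing about the factors that act on the gene.

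In fibroblasts cocultured with Th17 cells, 6 of the 10 members were lower, by 2.55- to 16.1-fold, and none was higher. The 6 were the long Schlafen genes Slfn5, Slfn8 and Slfn9 and all 3 p200 members. The count of a gene was called lower or higher when its fold change exceeded 2 with an adjusted p below 0.05 in edgeR's quasi-likelihood test over all 13088 genes tested, and 7.78% of those genes were called lower and 3.87% higher, 11.6% in all. The filter on low counts removed Slfn1 and Slfn4, and of the 8 members tested Slfn2 and Slfn3 were not called. The median log2 fold change of the 8 was −1.63, beside 0.004 over all genes tested. In 7 of the 8, every library of fibroblasts alone was above every cocultured library in CPM, which was the case for 26.1% of all genes tested. Leaving out any 1 library, and the other scalings, filters and tests that were tried, left the same 6 genes called.

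**Figure D1:**
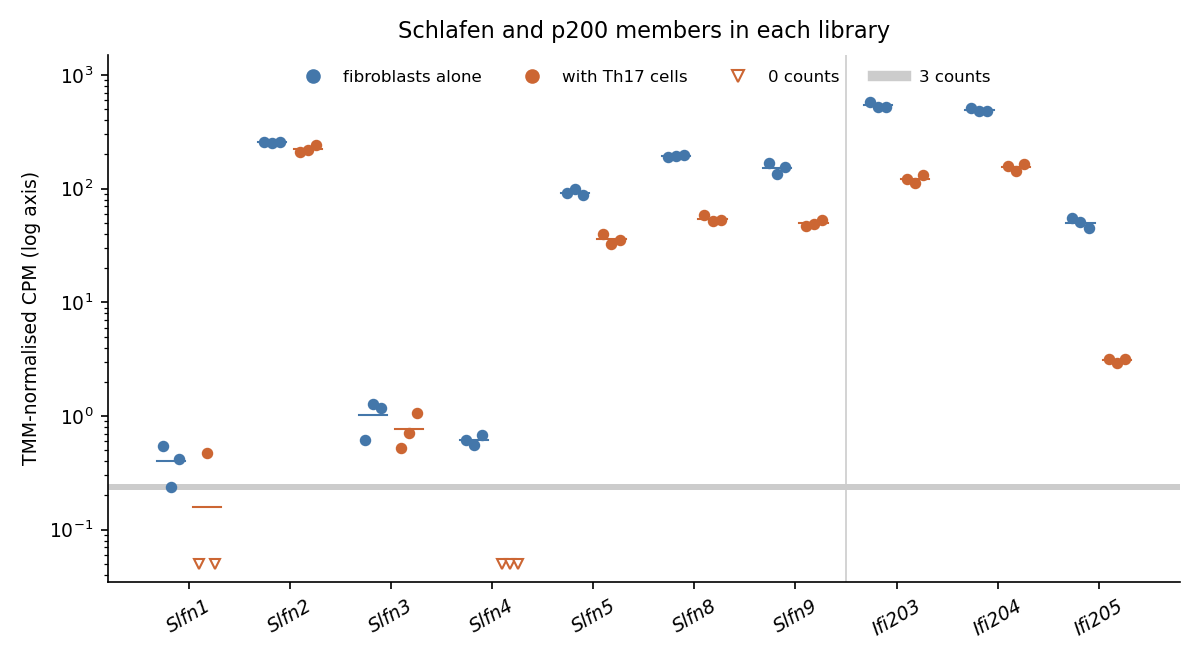
CPM (TMM-normalised, log axis) of each member in the 3 libraries of fibroblasts alone (blue) and the 3 of fibroblasts with Th17 cells (orange), with lines at the group means, open triangles for 0 counts and a grey band for the level of 3 counts. The groups are far apart for Slfn5, Slfn8, Slfn9, Ifi203, Ifi204 and Ifi205, close for Slfn2, and near the level of 3 counts for Slfn1, Slfn3 and Slfn4.

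The members lie in 2 clusters of neighbouring genes (build mm10). The 7 Schlafen members occupied chromosome 11 from 82951349 to 83215154, and the 3 p200 members chromosome 1 from 173747293 to 174031810. Among the long Schlafen genes, Slfn8 (ENSMUSG00000035208, chr11:83002158-83020810, − strand) had 2466, 2468 and 2320 counts in fibroblasts alone and 794, 656 and 691 in coculture. The highest cocultured library was below the lowest library of fibroblasts alone, with a wide gap between them. Its level fell from 194 ± 2.48 to 54.4 ± 4.07 CPM (SD, n = 3 per group), which was a log2 fold change of −1.84 with a standard error of 0.0709 (adjusted p = 1.37e-07 by edgeR).

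Slfn9 (ENSMUSG00000069793, chr11:82979629-82991830, − strand), another long form, had 2151, 1711 and 1820 counts alone and 637, 624 and 698 in coculture. The groups again stood apart, although the libraries of fibroblasts alone were more spread than for Slfn8. The level fell from 152 ± 16.0 to 49.8 ± 2.95 CPM (log2 fold change −1.61 with a standard error of 0.0909, adjusted p = 1.39e-06 by edgeR).

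Slfn5 (ENSMUSG00000054404, chr11:82951349-82962941, + strand) encodes a long form found in the nucleus. It had 1173, 1248 and 1038 counts alone and 540, 418 and 468 in coculture, without overlap. The level fell from 92.5 ± 5.55 to 36.2 ± 3.69 CPM (log2 fold change −1.35 with a standard error of 0.0919, adjusted p = 4.64e-06 by edgeR).

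Slfn2 (ENSMUSG00000072620, chr11:83065112-83070678, + strand), a short form that keeps T cells and monocytes quiescent, was the Schlafen member with most counts. It had 3303, 3221 and 3039 counts alone and 2823, 2762 and 3180 in coculture. In CPM the libraries of fibroblasts alone, between 254 and 257, lay just above the cocultured ones, of which the third, at 242, was closest to them. In FPKM, the fragment count scaled to gene length and library total, the groups overlapped. The log2 fold change was −0.20 with a standard error of 0.0666 (adjusted p = 0.0426 by edgeR), so that it missed the fold limit, and the adjusted p was below 0.05 in 2 of 14 alternatives, where it ranged from 0.0047 to 0.147. Without the third cocultured library the value was −0.26.

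The other Schlafen members were near the limit of detection. Slfn3 (ENSMUSG00000018986), an intermediate form known from T cells, had 8, 16 and 14 counts alone and 7, 9 and 14 in coculture, with overlap between the groups and a log2 fold change of −0.41 with a standard error of 0.421 (adjusted p = 0.481 by edgeR). Slfn4 (ENSMUSG00000000204), known from myeloid cells, had 8, 7 and 8 counts alone and 0 in all cocultured libraries. Against a floor of 3 counts in each cocultured library it was at least 2.62-fold lower. It was called lower only by edgeR without a filter on low counts (adjusted p = 0.00412) and by DESeq2. Slfn1 (ENSMUSG00000078763), a short form known from thymocytes, had 7, 3 and 5 counts alone and 0, 6 and 0 in coculture, and a difference was not detectable at this depth.

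All 3 p200 members fell. Ifi203 (ENSMUSG00000039997, chr1:173920407-173942672, − strand) had 7402, 6573 and 6199 counts alone and 1647, 1423 and 1730 in coculture. The cocultured libraries were close to each other and far below the rest. The level fell from 539 ± 30.6 to 122 ± 9.92 CPM (log2 fold change −2.14 with a standard error of 0.0777, adjusted p = 1.06e-07 by edgeR).

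Ifi204 (ENSMUSG00000073489, chr1:173747293-173766943, − strand), which is often treated as the mouse counterpart of the human DNA sensor IFI16, had 6542, 6115 and 5682 counts alone and 2117, 1835 and 2165 in coculture. Here too the groups stood apart. The level fell from 490.3 ± 15.1 to 155 ± 10.4 CPM (log2 fold change −1.66 with a standard error of 0.0669, adjusted p = 1.73e-07 by edgeR).

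Ifi205 (ENSMUSG00000054203, chr1:174011998-174031810, − strand), known in macrophages as a regulator of the inflammasome adaptor Pycard, fell furthest. It had 712, 640 and 530 counts alone and 43, 37 and 42 in coculture. The 3 cocultured libraries were nearly equal, and all lay more than 10 times below the lowest library of fibroblasts alone. The level fell from 50.2 ± 5.23 to 3.10 ± 0.167 CPM (log2 fold change −4.01 with a standard error of 0.126, adjusted p = 4.75e-08 by edgeR), and it ranked 82 from the lowest log2 fold change among the 13088 genes tested.

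**Figure D2:**
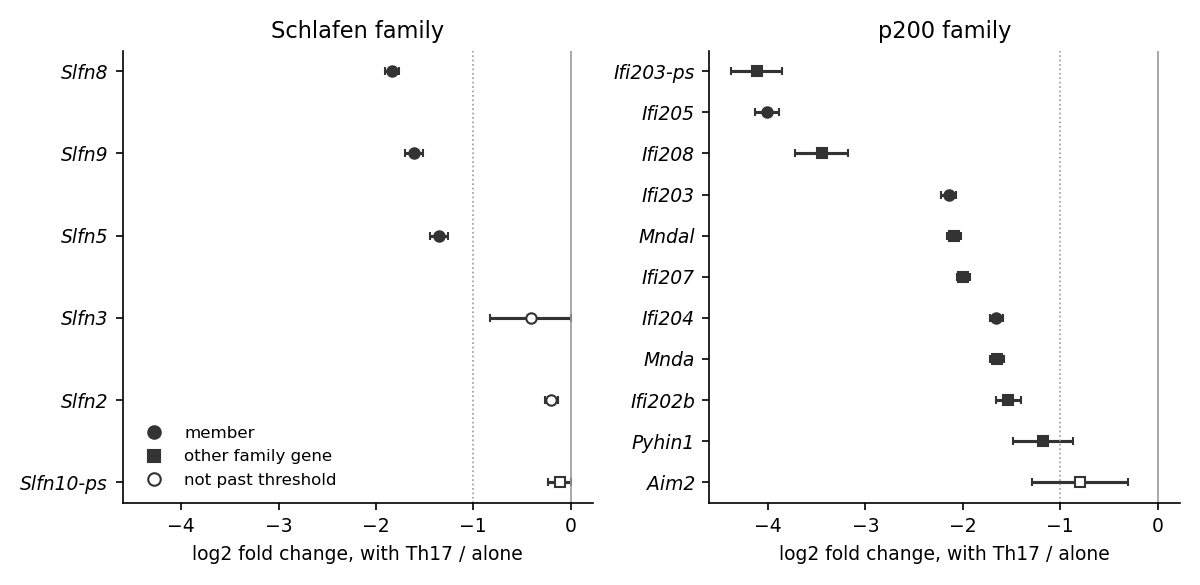
Log2 fold change (cocultured over alone) with its SE for the tested Schlafen genes (left) and p200 genes (right). Circles are members, squares other genes of the families, filled symbols genes past the threshold, and the dotted line marks a fold of 2. Slfn8, Slfn9 and Slfn5 lie left of that line and Slfn2, Slfn3 and Slfn10-ps right of it, whereas 10 of 11 p200 genes are past the threshold.

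Compared per length, the Schlafen members kept their order. In fibroblasts alone the mean level in FPKM was 150.4 ± 1.05 for Slfn2, 30.4 ± 0.476 for Slfn8, 22.3 ± 2.33 for Slfn9 and 15.9 ± 0.935 for Slfn5 (SD, n = 3), and no neighbours in this order overlapped. In coculture the same levels were 137 ± 11.0, 8.89 ± 0.677, 7.65 ± 0.489 and 6.52 ± 0.682 FPKM, again without overlap. Slfn3 (0.551 and 0.431 FPKM), Slfn1 (0.210 and 0.0856) and Slfn4 (0.0961 and 0) followed in both groups, and in coculture the last 2 overlapped.

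Slfn2 was among the more abundant transcripts of these cells in both groups: 1.71% of the genes tested had a higher FPKM in fibroblasts alone and 2.05% in coculture. Slfn8 had 10.5% of the genes above it in fibroblasts alone and 32.7% in coculture. Among the p200 members, Ifi204 was highest per length (123 ± 3.45 FPKM alone and 40.6 ± 2.98 in coculture), before Ifi203 (60.9 ± 3.32 and 14.4 ± 1.26) and Ifi205 (10.05 ± 1.02 and 0.648 ± 0.0386), with no overlap between them in either group. Ifi205 had 29.3% of the genes above it alone and 86.1% in coculture.

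The make-up of each family was then compared by library, as shares of its summed FPKM. Slfn2 made up 68.0%, 68.7% and 68.5% of the summed Schlafen FPKM in fibroblasts alone and 84.1%, 85.5% and 86.2% in coculture. All cocultured libraries were above all others, and the mean share was 68.4 ± 0.345% and 85.3 ± 1.10% (SD, n = 3). The exact two-sided permutation test gave p = 0.1, the smallest that 3 against 3 libraries allow. Shares in both families restate the levels above, where Slfn2 fell less than Slfn5, Slfn8 and Slfn9, so this test adds no support. In the p200 family the share of Ifi203 was 31.5 ± 0.520% alone and 25.9 ± 0.323% in coculture (exact permutation p = 0.1 again, the smallest possible), that of Ifi205 was 5.18 ± 0.369% and 1.17 ± 0.0330%, and that of Ifi204 was 63.3 ± 0.688% and 73.0 ± 0.291%.

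**Figure D3:**
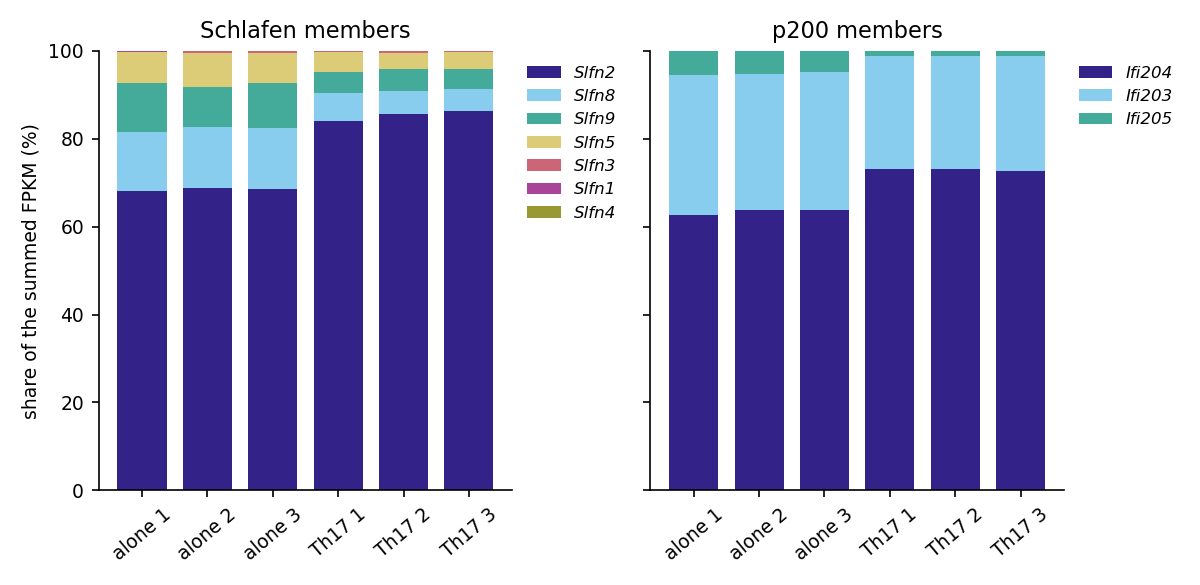
Share of the summed FPKM (%) of the 7 Schlafen members (left) and the 3 p200 members (right) in each library, as bars stacked to 100%. The Slfn2 share rises from between 68.0% and 68.7% alone to between 84.1% and 86.2% in coculture, and the Ifi205 share shrinks from 5.18% to 1.17% on average.

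Paralogs can trade fragments where their sequences are alike, so the extent of identical sequence was measured. Of all 50-base words in a gene's GENCODE M21 transcripts, the share that also occurred in transcripts of another gene was 14.6% for Slfn8, 11.9% for Slfn9, 11.1% for Slfn5, 4.27% for Slfn2 and 0.606% for Slfn1. For Slfn8 the other genes were Slfn10-ps (10.1% of its words) and Slfn9 (9.30%). Slfn3 shared 16.0% and Slfn4 11.3%, for both mostly with each other and with the predicted gene Gm11427, which makes their low counts uncertain. Among the p200 members the share was 12.4% for Ifi203, 20.02% for Ifi204 and 18.6% for Ifi205, of which the gene listed as Mnda (Ifi211 in newer annotation) held 14.8% and 18.5% for the latter pair.

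Summing relatives cancels fragments traded within the sum, but not those traded with genes left out of it. Mnda, which shared most words with Ifi204 and Ifi205, and Slfn10-ps, which shared most with Slfn8 and Slfn9, were in none of the sums given below. A sum over all p200 genes, Mnda among them, was included in the 15 alternatives to the p200 sum. These alternatives lay between −1.99 and −1.78 on the log2 scale. The 7 Schlafen members together had 9116, 8674 and 8244 counts alone and 4801, 4475 and 5051 in coculture. The log2 fold change of −0.94 with a standard error of 0.0568 (adjusted p = 2.28e-06 by edgeR) stayed below the fold limit. Their summed FPKM, a sum with other weights, gave −0.45 by limma on log2(FPKM + 1). In fibroblasts alone Slfn2 made up 68.4% of the summed FPKM but 36.7% of the summed counts. Without Slfn2 the sum of counts was past the fold limit (−1.64), and Slfn8 and Slfn9 as 1 sum gave −1.73. The 3 p200 members together had 14656, 13328 and 12411 counts alone and 3807, 3295 and 3937 in coculture (log2 fold change −1.95 with a standard error of 0.0705, adjusted p = 1.08e-07 by edgeR). Ifi203 lies within Mndal on the same strand over most of its length, and the sum of Ifi203, Mndal and the pseudogene Ifi203-ps gave −2.14, as Ifi203 alone did. Slfn5 overlaps the antisense gene Slfn5os, and whether counting used the strand was not stated. The mm10 build comes from another mouse strain than the one the methods name, and what this did to the counts of either group was not tested.

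The other genes of the families were examined as well. Of 14 in the table, 9 were tested, 7 were lower and none was higher, with a median log2 fold change of −1.65. All 7 were p200 genes. Ifi202b, which lacks the pyrin domain and shared none of its 50-base words with other genes, had 9090, 7724 and 6944 counts alone and 2906, 2281 and 3453 in coculture. It was the p200 gene with most counts in the table, and its groups did not overlap (log2 fold change −1.53 with a standard error of 0.132, adjusted p = 2.22e-05 by edgeR). Mndal had a log2 fold change of −2.09, Ifi207 (listed as AI607873) −1.99 and Mnda −1.65, although 72.8% of the words of Mnda occurred in other genes. Lower counts stood behind Ifi208 (listed as Pydc3; −3.45), Ifi203-ps (listed as Gm16340; −4.12) and Pyhin1 (Ifi209 in newer annotation; −1.18, adjusted p = 0.0146 by edgeR). Pyhin1 had 18, 26 and 25 counts alone and 10, 11 and 11 in coculture, and without the second or the third library of fibroblasts alone its adjusted p was 0.0628 and 0.0640.

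Neither of the other tested genes was called. Aim2, the DNA sensor that builds an inflammasome, had 16, 8 and 11 counts alone and 3, 10 and 8 in coculture (log2 fold change −0.79 with a standard error of 0.491, adjusted p = 0.24 by edgeR). Slfn10-ps, a pseudogene that lies between Slfn8 and Slfn2, had 144, 160 and 142 counts alone and 151, 130 and 154 in coculture. The groups overlapped (log2 fold change −0.11 with a standard error of 0.120, adjusted p = 0.507 by edgeR), and Slfn10-ps shares 13.5% of its words with Slfn9 and 11.8% with Slfn8, both of which fell. Ifi213 (listed as Pydc4) had 5, 9 and 6 counts alone and 0 in coculture and was at least 2.27-fold lower. Slfn14, Slfnl1, Ifi206 (listed as Gm4955) and Ifi214 (listed as BC094916) had at most 18 counts in a library and were not tested.

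The ISRE letters stood in the windows of 7 of the 10 other p200 genes that had one, namely Mnda, Mndal, Ifi206, Ifi207, Ifi208, Ifi213 and Ifi214, and in none of the other Schlafen genes with a window, Slfn14 and Slfnl1. The stretches of 3 of them are shown because they resemble those of Ifi203 and Ifi205 on both sides of the match, which is in capitals as above.
Mnda (chr1:173913064-173913093, − strand): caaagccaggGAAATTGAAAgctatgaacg
Mndal (chr1:173880204-173880233, − strand): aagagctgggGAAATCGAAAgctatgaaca
Ifi207 (chr1:173741831-173741860, − strand): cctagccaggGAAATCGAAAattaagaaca
The stretch of Mndal was identical to that of Ifi203. The match began 37, 36 and 41 bases before the starts of Mnda, Mndal and Ifi207. That of Mndal lies inside the gene as counted, which begins at 173942491. The windows of Aim2, Pyhin1 and Ifi202b held no ISRE letters, and the window of Ifi202b was the only one among the family genes with the GAS letters.

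Genes around the members were compared, since neighbours on a chromosome can change together. Within 500 kb of the Schlafen members lay 36 genes outside the family list, of which 15 were tested, 5 were lower and none was higher (median log2 fold change −0.29). The 5 were the chemokine genes Ccl5 (−1.78), Ccl9 (−2.44), Ccl3 (−3.09), Ccl4, which had 20, 19 and 20 counts alone and 2, 2 and 3 in coculture, and Ccl6, which had 20, 19 and 18 counts alone and 0 in coculture and was at least 6.47-fold lower. They began 574 to 711 kb from the start of Slfn5, and the tested genes between them and the Schlafen members were not called. Of the 32 other genes within 500 kb of the p200 members only 2 were tested. Cadm3, a cell adhesion gene that overlaps Aim2 on the other strand, was lower (−1.56), and Fmn2, an actin nucleator, was higher (2.06).

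**Figure D4:**
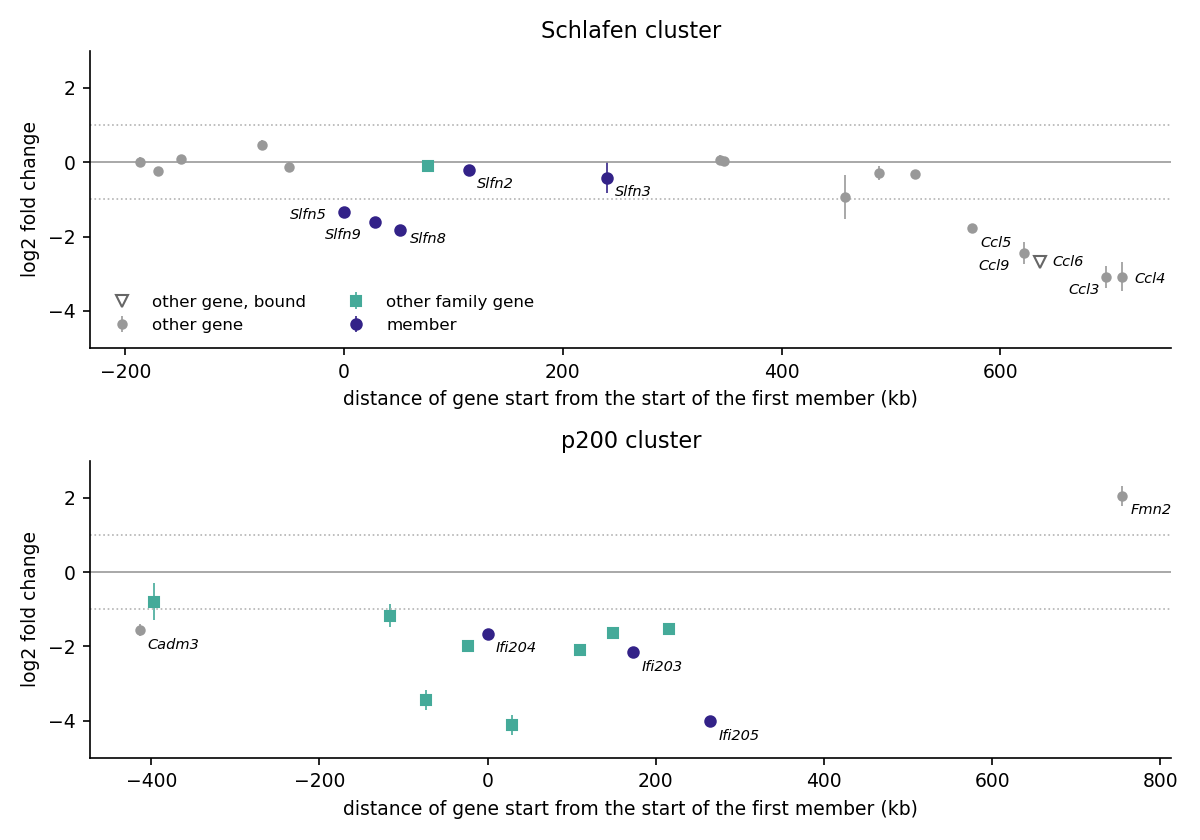
Log2 fold change with its SE for the tested genes of the Schlafen cluster (top) and the p200 cluster (bottom), against the distance in kb of the gene start from the start of the first member. Members are dark, other family genes green, other genes grey, dotted lines mark a fold of 2, the open triangle of Ccl6 is a bound, and the point of Ccl4 rests on 2, 2 and 3 cocultured counts. Slfn2, Slfn3 and Slfn10-ps sit above the dotted line beside Slfn5, Slfn9 and Slfn8 below it, and Cadm3 and Fmn2 are the only tested genes of the p200 cluster outside the family.

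The interferon pathway itself was described from a list of interferon ligands, receptors, kinases, transcription factors and feedback genes. Of 25 in the table, 18 were tested, 5 were lower and 1 was higher, with a median log2 fold change of −0.21. Among ligands, Ifnb1 had 4, 6 and 4 counts alone and 0, 4 and 3 in coculture, and Ifng had none in any library. The receptor chains were not called. Ifnar1 was at −0.01 and Ifnar2 at −0.74, and of the interferon gamma receptor Ifngr1 was at −0.06 and Ifngr2 at 0.99, which passed the fold limit without the second library of fibroblasts alone (1.02). The kinases Jak1 (−0.03), Jak2 (−0.11) and Tyk2 (0.23) were not called either.

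Of the transcription factors, Stat2 had 5719, 5725 and 5252 counts alone and 2622, 2351 and 2155 in coculture. The groups stood apart (log2 fold change −1.30 with a standard error of 0.0718, adjusted p = 1.17e-06 by edgeR). Irf7, an amplifier of the interferon response, fell by 1.92 on the log2 scale, Irf5 by 2.19 and Irf1 by 1.54, whereas Irf9 was at −0.59 and Irf3 at −0.25 without a call. Usp18, a negative regulator at Ifnar2, fell by 1.63. Socs3, a feedback inhibitor best known from interleukin-6 signalling, rose from 434, 459 and 416 counts to 2388, 2435 and 3134 (log2 fold change 2.53 with a standard error of 0.113, adjusted p = 3.17e-07 by edgeR), and Socs1 was at 0.70 and below the fold limit. A list of 29 interferon-induced transcripts, which held Stat2, Irf7 and Usp18 again, had 28 tested and 27 lower, with a median log2 fold change of −1.85.

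Genes of DNA sensing and inflammasomes, only some of which act with p200 proteins, formed a further list of 11. Of these, 9 were tested, 5 were lower and none was higher (median log2 fold change −1.10). Zbp1, a nucleic acid sensor, had 3477, 3777 and 3412 counts alone and 1488, 1418 and 1748 in coculture, without overlap (log2 fold change −1.27 with a standard error of 0.0848). Mb21d1, which encodes the DNA sensor cGAS, fell by 1.10, and without the third cocultured library its value was −0.97 and below the fold limit. Casp4, the caspase that senses lipopolysaccharide, fell by 1.32. The inflammasome cytokines Il1b (70, 65 and 68 counts alone, 4, 0 and 5 in coculture, −4.51) and Il18 (−1.93) were lower from few counts. Tmem173, which encodes STING, was at −0.37, its kinase Tbk1 at −0.53, the kinase Ikbke at 0.17 and the pore protein Gsdmd at −0.65, all within the fold limit. Pycard and Casp1, the adaptor and the caspase of the inflammasome, had at most 14 counts in a library. Both were removed by the filter on low counts. Without that filter edgeR called both lower (adjusted p = 0.0158 for Pycard and 0.0359 for Casp1), and DESeq2 called Pycard lower (adjusted p = 0.0263). Casp1 also passed the filter and was called lower without the third library of fibroblasts alone (adjusted p = 0.0217 by edgeR) or without the second cocultured library (adjusted p = 0.0409 by edgeR).

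**Figure D5:**
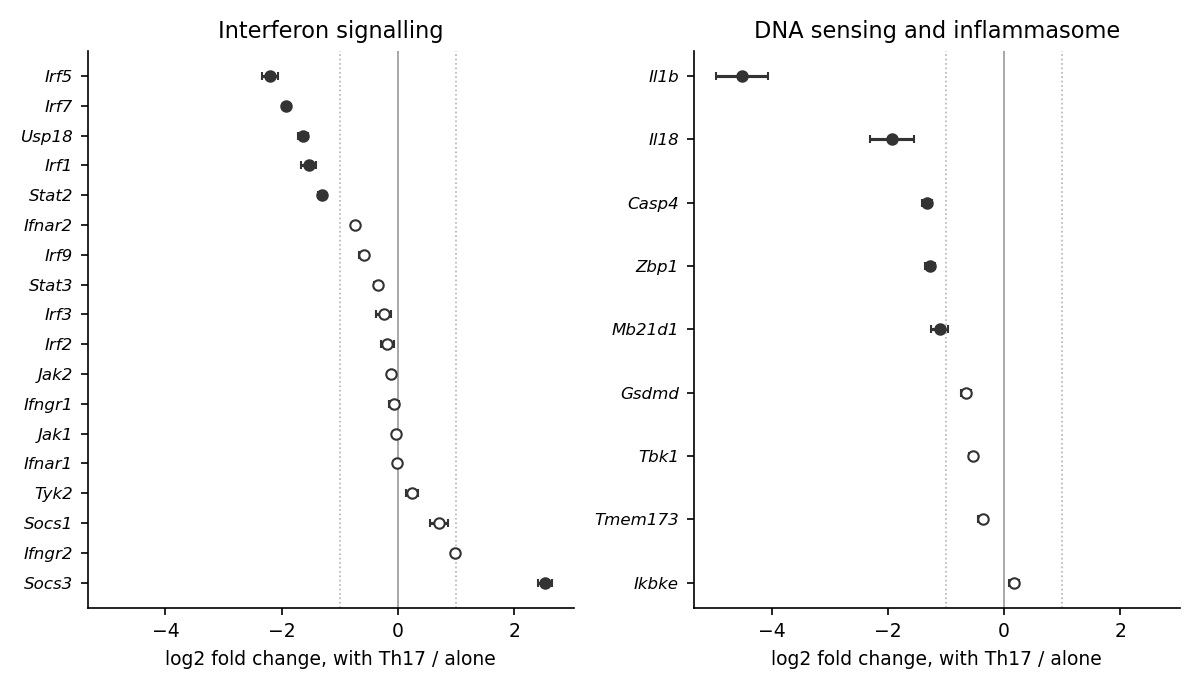
Log2 fold change (cocultured over alone) with its SE for the tested interferon signalling genes (left) and the tested genes of DNA sensing and inflammasomes (right). Filled circles are past the threshold and dotted lines mark a fold of 2, so that Stat2, Irf1, Irf5, Irf7 and Usp18 lie to the left and Socs3 to the right.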

How the data were processed

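RNA of mouse renal fibroblasts was sequenced in 6 libraries, 3 per group, and samples were grouped by title. The authors aligned reads with HISAT2 2.0.4 to mm10, counted fragments with StringTie 1.3.3b and deposited raw counts and, beside them, FPKM values per gene. The sources do not say how fragments matching more than 1 gene were handled. Total counts were between 12050529 and 13209581 per library. Bounds from 3 counts cover counting error only, because PCR copies of a molecule could not be recognised.

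The counts were tested by edgeR 4.0.16 under R 4.3.3 (filterByExpr with a minimum count of 10, TMM, glmQLFit, glmQLFTest, Benjamini-Hochberg over 13088 genes), checked on simulated data. The threshold (fold change over 2, adjusted p under 0.05) is that of the study's methods. The common dispersion was 0.0136. Standard errors were derived from the estimate and its F statistic, as estimate over √F. Alternatives used DESeq2 1.42.0, limma 3.58.1 on log2(FPKM + 1), other scalings and filters, and the removal of each library. Shares of FPKM were compared with an exact permutation test. No library copied another: the chi-square statistic per gene was at least 6.38 within groups. Older symbols were matched through gene IDs to GENCODE M21, and promoter letters are from RefSeq. Python 3.11.15, pandas 2.3.3 and matplotlib 3.10.9 served for tables and figures.

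One gene of the lists is not reported here. The members and lists were chosen with earlier results of these data known. The text names the members, the other family genes, interferon signalling and DNA sensing genes past the threshold or with a direct role, the 3 macrophage markers with most counts, neighbours within 500 kb past the threshold, and the 3 genes most like the member with most counts in each family. Adgre1, Casp1 and Pycard were named after their values were seen.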

Additional observations from a re-analysis of the deposited data

How the results depend on the processing

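Of 286 values recomputed under another choice, 273 were scored as the same and 0 reversed. A fold change was the same if it kept its direction and side of the threshold. A count had to stay within 1.5 times, and a difference of shares within the pooled SD of the libraries. The 6 lower members were called in all 15 other fits. The number of all genes past the threshold was 1524, but 626 by limma on log2(FPKM + 1), 791 by glmTreat against a fold of 2 and 4856 with no fold limit. The count of lower DNA sensing genes was 5, but 3 with 10 counts in every library, with limma and with glmTreat, and 8 with no fold limit. That of interferon signalling genes was 5, and 8 with no fold limit. That of macrophage markers was 10, but 2 with 10 counts in every library and 4 with limma. The setting of 10 counts in every library tests fewer genes by construction, and glmTreat is stricter by construction because it tests against a fold of 2. Adding 1 to FPKM before limma shrinks the fold changes of low genes by construction. Csf1r, Fcgr3, Aif1, Cd74, Laptm5, Mb21d1 and Il18 kept an adjusted p below 0.05 by limma but missed the fold limit. Ptprc had an adjusted p of 0.326 by limma. For the number of all genes called by limma the cause was not tested. The Schlafen sum was −0.94 by counts, but −0.45 by limma on log2(FPKM + 1), which took summed FPKM in place of summed counts. Without Slfn2, a choice made after seeing the data, the sum of counts was −1.64. By counts in place of FPKM, the difference of the Slfn2 share was 24.4 points in place of 16.9, and that of the Ifi203 share −6.46 in place of −5.60. Ifi205 was at −2.74 on the log2(FPKM + 1) scale, which understates low genes.

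Leaving out each library in turn gave 1493 to 1546 genes past the threshold, 6 lower and 0 higher members each time, 6 to 7 other family genes, 5 interferon signalling genes, 4 to 6 DNA sensing genes, 27 to 28 interferon-induced genes and 10 macrophage markers. The Schlafen sum was between −0.97 and −0.91, the p200 sum between −1.99 and −1.89, the Slfn2 share difference between 16.4 and 17.5 points and the Ifi203 share difference between −5.86 and −5.34 points. Replicate numbers showed no sign of pairing: the correlation of deviations between same-numbered libraries was between −0.0256 and 0.0157. With so few libraries this cannot exclude pairing. With the replicate block, 1495 genes and the same 6 members were called, and Slfn2 had an adjusted p of 0.0569.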

Other observations

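Over the 6 libraries, the log2 CPM of Slfn2 was most like that of Saa3, an acute-phase gene (Pearson r = 0.998), Nenf (0.997) and Tma7-ps (0.997), out of 9739 genes with a mean of at least 100 counts. That of Ifi203 was most like Ifi204 (0.9999), Pnpt1 (0.9997) and Ifi44 (0.9996), and 267 genes exceeded 0.99 for Ifi203, against 13 for Slfn2. The 6 libraries share 2 groups, so such values follow the difference between the groups and are given as a description. The log2 fold changes were −0.86 for Saa3, −0.64 for Nenf, −0.45 for Tma7-ps, −0.98 for Pnpt1 and −1.70 for Ifi44.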
